A study of Rattus norvegicus with 9 samples.

Results

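The genes described here encode 9 proteins of the machinery that fuses hormone granules with the plasma membrane of islet cells: Stx1a, Snap25, Vamp2, Syt7, Syt13, Rab3a, Sytl4, Unc13a and Rims2. They were found by gene symbol in the annotation of the array, where 14 of 31042 probe sets carried these symbols, and they were 9 of the 14217 named genes. Islets were isolated from the pancreas of Zucker Diabetic Fatty rats (fa/fa), all male, a strain whose leptin receptor is defective and which turns obese and diabetic. Their RNA was hybridised to 9 Affymetrix rat genome arrays. The treated group (3 arrays) was fed rosiglitazone, a diabetes drug that activates the nuclear receptor PPAR gamma, from week 5 of age at a dose of 3 mg per kg and was sampled at week 9. The withdrawal group (3 arrays) received the same drug from week 5 to week 9 and was sampled at week 11, 2 weeks after it was stopped. The untreated group (3 arrays) never received the drug and was sampled at week 13. All rats, controls included, were fa/fa and ate the Purina 5008 diet, and no lean animals are analysed here. Age and treatment differed together between the groups and cannot be told apart. The labels call the arrays of a group biological replicates and do not say how many rats each array stands for, and 24 rats were randomised in the study.

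Insulin and glucagon are stored in dense-core granules and released when calcium enters the cell. Syntaxin 1A and SNAP-25 in the plasma membrane and VAMP2 in the granule membrane are SNARE proteins, which zip into a bundle and draw the membranes together. Many synaptotagmins, though not all, sense calcium. Rab3a and its effectors bring granules to the membrane, and Munc13 and RIM proteins ready them for release. The same proteins serve neurotransmitter release in neurons, so nerve fibres in an islet preparation can also contribute their RNA.

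Values are log2 units as deposited, and a gene with several probe sets is represented by the one with the highest mean over the 9 arrays. Values of different probe sets are not compared as levels. The standard deviation of log2 values over probe sets was 1.84 to 2 on treated, 1.65 to 1.72 on withdrawal and 1.66 to 1.77 on untreated arrays, so that values were spread more widely on treated arrays. The first treated array stood apart, with 2 against 1.84 and 1.85 on the other treated arrays. Each difference is therefore given as deposited and after quantile normalization, which forces the same distribution on every array. On that scale the mean of the standardised exocytosis genes was -0.09 on the first treated array against 1.09 and 1.1 on the others, so counts are also given without that array. As deposited, islet marker means were highest on treated arrays, where bright probe sets in general read higher. In the brightest decile of tested probe sets the median difference of treated from untreated was 0.53. The mean of 8 measured beta cell markers ran from 11.45 to 11.55 on treated, 10.70 to 10.87 on withdrawal and 10.85 to 11.14 on untreated arrays. The mean of 10 general neuroendocrine markers ran from 11.37 to 11.79, from 10.48 to 10.80 and from 10.56 to 11.15 in the same order. After quantile normalization the median difference of treated from untreated was 0.12 for the beta cell markers, with 0 of 8 called higher. It was 0.20 for the neuroendocrine markers, with 3 of 10 called higher and 1 lower (7.63% and 8.88% of all genes). Lower on that scale were 3 of 6 lymphocyte, 3 of 8 stellate cell and matrix and 3 of 7 endothelial markers. So were 1 of 6 duct and 1 of 11 acinar markers, and 0 of 8 macrophage and myeloid markers. No marker of these lists was called higher. As deposited, the mean of 10 nerve and Schwann cell markers overlapped between the groups, at 5.83 to 6.26, 6.08 to 6.14 and 6.01 to 6.14. Acinar markers were bright on all arrays, between 13.75 and 13.95. That is near the top of the range of the arrays (highest value 14.36), where a change may not show. Macrophage and myeloid markers spread widely on treated arrays (6.18 to 7.91) compared with withdrawal (7.31 to 7.55) and untreated arrays (6.71 to 6.94), and lymphocyte markers were lower on treated arrays, at 5.34 to 5.55 against 5.73 to 6.08 on the others. Stellate cell and matrix markers ran from 8.98 to 10.49 on treated, from 9.92 to 10.14 on withdrawal and from 9.54 to 10.07 on untreated arrays. After quantile normalization 7 of 8 were higher in withdrawal than in treated islets, against 13.3% of all genes. In the same test 5 of 6 lymphocyte and 3 of 8 macrophage and myeloid markers were higher. Lower were 3 of 8 beta cell and 4 of 10 neuroendocrine markers, against 14.2% of all genes. Duct markers ran from 8.72 to 9.59, 8.66 to 8.91 and 8.64 to 8.99, and endothelial markers from 8.03 to 8.78, 7.79 to 8.05 and 8 to 8.42, in the order treated, withdrawal and untreated. No marker list was at 0, since the table holds no zeros. In bulk RNA, fewer cells of a type and less RNA per cell cannot be told apart, and the part of these markers in the results was not tested.

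The comparison of treated with untreated islets asked how exocytosis transcripts under rosiglitazone differed from those of untreated, older rats. Of the 9 genes, 7 passed the brightness filter. Of these, 6 were higher in treated islets by limma with Benjamini-Hochberg adjustment over all probe sets tested, and none was lower. They were Stx1a, Snap25, Vamp2, Syt13, Rab3a and Sytl4, and Syt7 did not pass the test. The background was high, since 20.9% of all 20695 probe sets tested were called higher and 7.24% lower. The median difference of the 7 genes was 0.54, against 0.22 over all genes tested. After quantile normalization 2 of the 7, Stx1a and Syt13, were called higher, against a background of 7.75%, and their median was 0.29 against 0.02 over all genes. Without the first treated array quantile normalization gave the same 2 calls, in a fit for which no share over all probe sets is given. Values of the treated and untreated groups did not overlap for 6 of 7 genes as deposited (31.2% of all probe sets were higher without overlap) and for 4 of 7 after quantile normalization (17.8%). The calls rested in part on the second untreated array. Without it, 2 of the 7, Snap25 and Syt13, were called, against a background of 7.07%. Stx1a then had an adjusted p of 0.0503, Rab3a of 0.0838, Sytl4 of 0.091 and Vamp2 of 0.119.

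**Figure D1:**
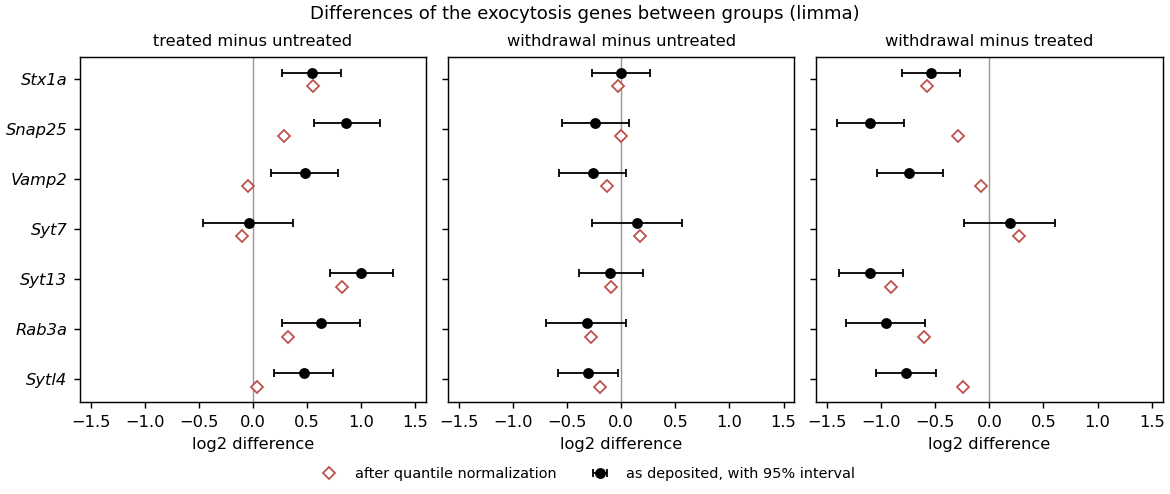
Log2 difference (x axis) of each measured exocytosis gene (y axis) in the 3 comparisons, as deposited (black points, bars are 95% limma intervals) and after quantile normalization (red diamonds). Syt13 and Stx1a keep their difference between treated and untreated islets under quantile normalization, at 0.82 and 0.55, while Vamp2 goes from 0.48 to -0.05.

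RefSeq promoter sequences (build GRCr8) were at hand for 5 of the 9 genes. Those of the 4 that passed the brightness filter, rose as deposited and had an entry, Stx1a, Vamp2, Rab3a and Sytl4, are shown. These genes shared a direction as deposited. Unc13a, which fell under the filter, also rose in the fit with no filter, and its sequence is not printed. Each is the 250 bases before the annotated start, 5′ to 3′ on the gene's strand. Capitals mark CRE half-sites (TGACG or CGTCA, a motif bound by cAMP-responsive factors) and GC boxes (GGGCGG or CCGCCC, bound by Sp1-type factors), searched on both strands. No base lay in both motifs.
Stx1a (chr12:27306472-27306721, minus strand): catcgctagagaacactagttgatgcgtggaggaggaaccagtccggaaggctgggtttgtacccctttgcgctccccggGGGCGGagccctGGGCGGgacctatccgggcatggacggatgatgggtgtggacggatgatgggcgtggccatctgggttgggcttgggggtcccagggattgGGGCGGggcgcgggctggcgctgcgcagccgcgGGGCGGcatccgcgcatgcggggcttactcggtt
Vamp2 (chr10:54292539-54292788, plus strand): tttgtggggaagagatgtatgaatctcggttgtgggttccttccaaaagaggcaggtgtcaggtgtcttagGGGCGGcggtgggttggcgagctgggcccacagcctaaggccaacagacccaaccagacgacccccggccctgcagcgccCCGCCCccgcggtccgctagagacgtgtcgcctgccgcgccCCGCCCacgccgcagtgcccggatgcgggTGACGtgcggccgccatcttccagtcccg
Rab3a (chr16:18722274-18722523, minus strand): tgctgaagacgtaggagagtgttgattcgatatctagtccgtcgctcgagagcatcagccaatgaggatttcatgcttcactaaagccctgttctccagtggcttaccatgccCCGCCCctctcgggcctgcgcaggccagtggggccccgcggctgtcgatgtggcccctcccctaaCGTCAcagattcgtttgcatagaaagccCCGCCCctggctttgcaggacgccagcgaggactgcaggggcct
Sytl4 (chrX:101479152-101479401, minus strand): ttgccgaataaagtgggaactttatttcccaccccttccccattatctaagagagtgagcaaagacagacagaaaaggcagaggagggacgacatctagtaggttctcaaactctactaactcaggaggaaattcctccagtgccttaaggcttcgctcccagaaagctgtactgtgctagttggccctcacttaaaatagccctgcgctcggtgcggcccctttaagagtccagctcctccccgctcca
The 4 sequences differed in composition. Stx1a held 4 GC boxes and no CRE half-site, at 68.4% GC. Vamp2 held 3 GC boxes and 1 CRE half-site, which began 29 bases before the start. Rab3a held 2 GC boxes and 1 CRE half-site, which began 72 bases before the start. Sytl4 held neither motif in this window, at 50.8% GC. Unc13a, the remaining gene with an entry, held 3 CRE half-sites and 2 GC boxes. Of the 27457 promoter windows of this length, 19% held a CRE half-site, 32.4% a GC box and 8.84% both, and the median GC content was 52%. A match describes these letters and does not show that a factor binds there. Snap25, Syt7, Syt13 and Rims2 are named only.

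Among the SNARE genes, Stx1a, which encodes the plasma membrane SNARE syntaxin 1A, was higher in treated islets on both scales. Its probe set 1387360_at read 5.88, 5.93 and 5.86 on treated, 5.38, 5.28 and 5.40 on withdrawal, and 5.42, 5.14 and 5.49 on untreated arrays. The treated arrays lay above all others and close together, and the other groups overlapped. The difference between treated and untreated was 0.54 ± 0.12 (SE, n = 3 per group; adjusted p = 0.0106), or 0.55 after quantile normalization (adjusted p = 0.012). From treated to withdrawal it fell by 0.54 ± 0.12 (adjusted p = 0.00564), and by 0.58 after quantile normalization (adjusted p = 0.00626). A further probe set, 1387359_at, read 5.49 to 5.61 on treated, 5.03 to 5.26 on withdrawal and 5.24 to 5.30 on untreated arrays. It had the same order of treated above the rest. Its difference from untreated, 0.29, missed the threshold (adjusted p = 0.0732) and passed after quantile normalization at 0.33 (adjusted p = 0.0458). Both probe sets of Stx1a were dim, and the representative lay in the second decile of brightness, where the median difference of all probe sets was -0.02.

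Snap25, which encodes the other plasma membrane SNARE, had one of the larger differences as deposited and lost its call on the other scale. Its probe set 1387073_at read 11.21, 10.89 and 10.91 on treated, 9.98, 9.84 and 9.87 on withdrawal, and 10.17, 9.91 and 10.32 on untreated arrays. Every treated array lay above every other array. It was 1.82-fold higher in treated than in untreated islets (log2 difference 0.86 ± 0.14, adjusted p = 0.00276) and 2.15-fold higher in treated than in withdrawal islets (log2 difference 1.10 ± 0.14, adjusted p = 0.000751). After quantile normalization the arrays read 10.45, 10.60 and 10.57, then 10.39, 10.29 and 10.07, then 10.19, 10.29 and 10.27. The treated arrays still lay above the rest, by far less. The differences were then 0.29 from untreated (adjusted p = 0.0846) and 0.29 from withdrawal (adjusted p = 0.0645), neither past the threshold.

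Vamp2, the granule SNARE, was higher in treated islets as deposited, and it was not called after quantile normalization. Its bright probe set 1369974_at read 9.64, 9.74 and 9.70 on treated, 8.92, 8.90 and 9.05 on withdrawal, and 9.49, 8.97 and 9.19 on untreated arrays. The treated arrays lay highest, although the first untreated array came close to them. The difference from untreated was 0.48 ± 0.14 (adjusted p = 0.0272), with a 95% interval from 0.17 to 0.78. After quantile normalization the values were 9, 9.5 and 9.4 on treated, 9.22, 9.25 and 9.20 on withdrawal, and 9.54, 9.30 and 9.22 on untreated arrays, and the groups overlapped. The difference was then -0.05 (adjusted p = 0.829), and 0.10 without the first treated array (adjusted p = 0.567). From treated to withdrawal Vamp2 fell by 0.74 ± 0.14 (adjusted p = 0.00235) as deposited, with a difference of -0.08 (adjusted p = 0.706) after quantile normalization. The call against untreated was lost when any of 3 single arrays was left out, at an adjusted p of up to 0.119 without the second untreated array. A dimmer probe set, 1371160_at, which did not pass the filter, ran the other way, at 4.38, 4.48 and 4.73 on treated against 5.07, 5.11 and 4.77 on withdrawal and 4.77, 4.77 and 4.86 on untreated arrays. In the fit with no filter it was 0.45 higher in withdrawal than in treated islets (adjusted p = 0.0195, against 11.6% of all probe sets higher), and 0.36 higher after quantile normalization (adjusted p = 0.0518).

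**Figure D2:**
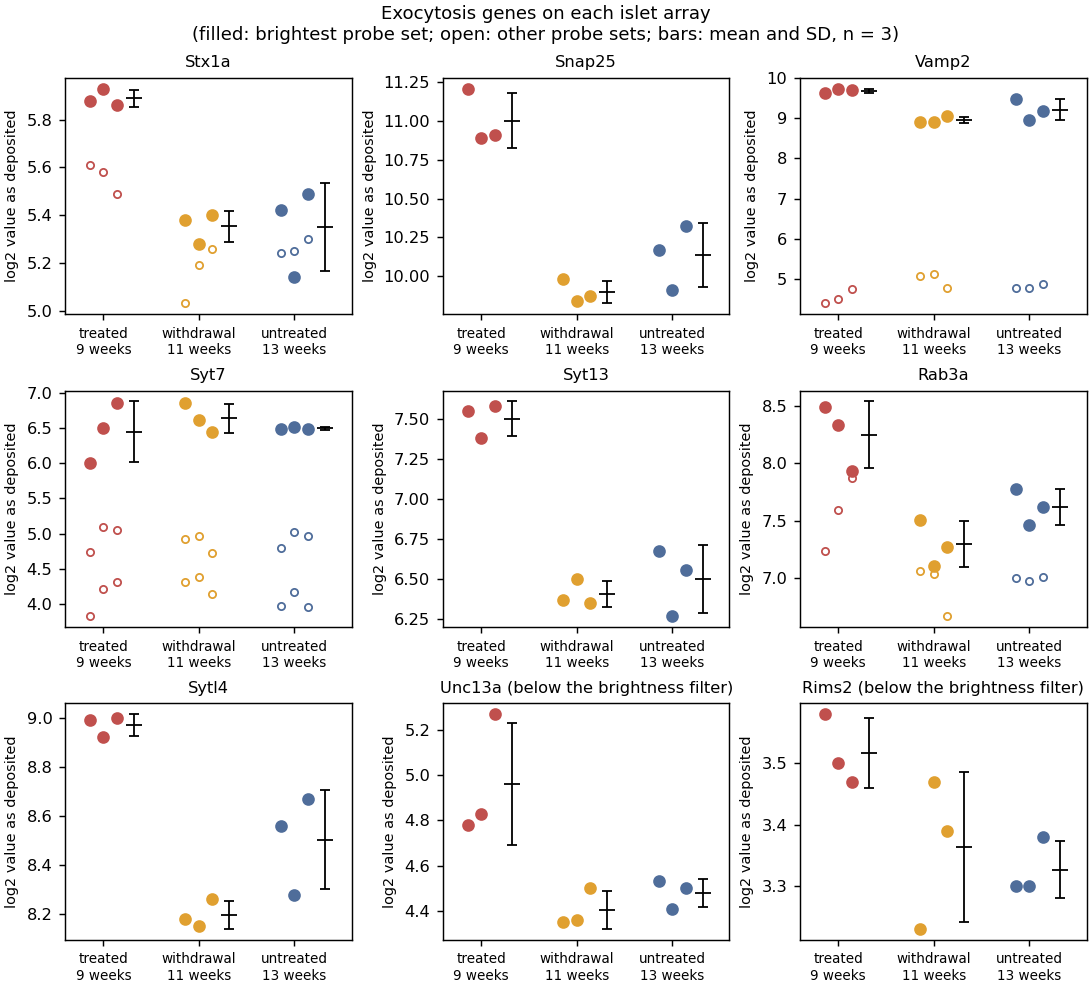
Log2 values as deposited (y axis) on each array (points) in the treated, withdrawal and untreated groups (x axis), for the 9 exocytosis genes. Filled points are the representative probe set, open points the others, and bars the mean and SD of the filled points (n = 3), on an axis that does not start at 0. In 6 of the 7 genes that passed the filter every filled treated point lies above every filled untreated point, and Syt7 is the exception.

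The synaptotagmin genes behaved unlike each other. Syt13, an atypical synaptotagmin, read 7.55, 7.38 and 7.58 on treated, 6.37, 6.50 and 6.35 on withdrawal, and 6.68, 6.27 and 6.56 on untreated arrays. All treated arrays stood far above the others, and the other groups overlapped. The gene was 2-fold higher in treated than in untreated islets (log2 difference 1 ± 0.13, 95% interval 0.71 to 1.29, adjusted p = 0.00125). After quantile normalization the difference was 0.82 (adjusted p = 0.00325). It was 2.14-fold higher in treated than in withdrawal islets (log2 difference 1.10 ± 0.13, adjusted p = 0.000681), or by 0.91 after quantile normalization (adjusted p = 0.00143). Syt13 passed both tests in every fit that left out an array.

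Syt7, a calcium sensor of high affinity, did not pass any test. Its probe set 1369185_a_at read 6, 6.50 and 6.85 on treated, 6.86, 6.61 and 6.45 on withdrawal, and 6.48, 6.51 and 6.49 on untreated arrays. The treated arrays spread over most of the range of all arrays (SD 0.43), whereas the untreated arrays were nearly alike (SD 0.02). The difference of treated from untreated was -0.04, with a 95% interval from -0.46 to 0.37 (adjusted p = 0.879), so that differences within that interval were not resolved. Its sign depended on the first treated array, without which the difference was 0.18. The other probe sets of Syt7 read 3.83 to 4.38 and 4.73 to 5.10 over all arrays and did not pass the filter.

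Rab3a, the granule GTPase, and Sytl4, which encodes granuphilin, a protein that docks granules to syntaxin 1A, were both higher in treated islets as deposited. The representative probe set of Rab3a, 1391434_at, read 8.49, 8.33 and 7.93 on treated, 7.51, 7.11 and 7.27 on withdrawal, and 7.78, 7.46 and 7.62 on untreated arrays. The treated arrays lay above the rest and were spread out (SD 0.29). Its difference from untreated was 0.63 ± 0.17 (adjusted p = 0.0179) as deposited and 0.32 (adjusted p = 0.128) after quantile normalization. From treated to withdrawal it fell by 0.95 ± 0.17 (adjusted p = 0.00171), and by 0.60 after quantile normalization (adjusted p = 0.0101). The other probe set, 1369816_at, read 7.24, 7.59 and 7.87 on treated, 7.06, 7.04 and 6.67 on withdrawal, and 7, 6.98 and 7.01 on untreated arrays. Both probe sets put the treated group highest, but ordered the treated arrays in opposite ways. Its differences of 0.57 from untreated (adjusted p = 0.0256) and 0.65 from withdrawal (adjusted p = 0.0091) passed as deposited, and after quantile normalization both missed the threshold, at 0.36 (adjusted p = 0.194) and 0.40 (adjusted p = 0.122).

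Sytl4 read 8.99, 8.92 and 9.00 on treated, 8.18, 8.15 and 8.26 on withdrawal, and 8.56, 8.28 and 8.67 on untreated arrays. The 3 groups did not overlap, with withdrawal lowest. Its difference of treated from untreated was 0.47 ± 0.13 (adjusted p = 0.0209), which became 0.04 (adjusted p = 0.819) after quantile normalization. From treated to withdrawal it fell by 0.77 ± 0.13 (adjusted p = 0.00141), and after quantile normalization the difference was -0.24 (adjusted p = 0.122).

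The priming genes were dim and fell under the brightness filter, so their tests come from the fit with no filter. Unc13a, which encodes Munc13-1, read 4.78, 4.83 and 5.27 on treated, 4.35, 4.36 and 4.50 on withdrawal, and 4.53, 4.41 and 4.50 on untreated arrays. All treated arrays lay above the others. In that fit it was 0.48 ± 0.14 higher than in untreated islets (adjusted p = 0.0299; background 14.5% higher), and 0.54 higher after quantile normalization (adjusted p = 0.0243). It fell by 0.55 from treated to withdrawal (adjusted p = 0.00974; background 22.8% lower), and by 0.65 after quantile normalization (adjusted p = 0.00706). Rims2, which encodes the Rab3-binding scaffold RIM2, read 3.58, 3.50 and 3.47 on treated, 3.23, 3.47 and 3.39 on withdrawal, and 3.30, 3.30 and 3.38 on untreated arrays. These values were low, and the treated arrays were at the upper end. The difference from untreated, 0.19, did not pass (adjusted p = 0.216), and neither did that from withdrawal (adjusted p = 0.291).

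Over all tested probe sets, differences as deposited grew with brightness, so each exocytosis gene is set beside the median of its brightness decile. The members themselves did not follow that order. Snap25 and Vamp2 lay in the brightest decile of the tested probe sets, Sytl4 in the ninth decile, Rab3a in the eighth, Syt13 in the sixth, Syt7 in the fifth and Stx1a in the second. In the brightest decile the median difference of treated from untreated was 0.53 and 54.5% of probe sets were called higher. Vamp2, at 0.48, lay near that median and Snap25, at 0.86, above it. Sytl4, at 0.47, stood beside a median of 0.38 in its decile, and Rab3a, at 0.63, beside 0.27. In the sixth decile the median was 0.16 with 17.4% called higher, against 1 for Syt13. In the second decile 6.72% were called higher, and Stx1a, at 0.54, stood beside a median of -0.02. Syt7, at -0.04, lay below the median of the fifth decile, 0.07.

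**Figure D3:**
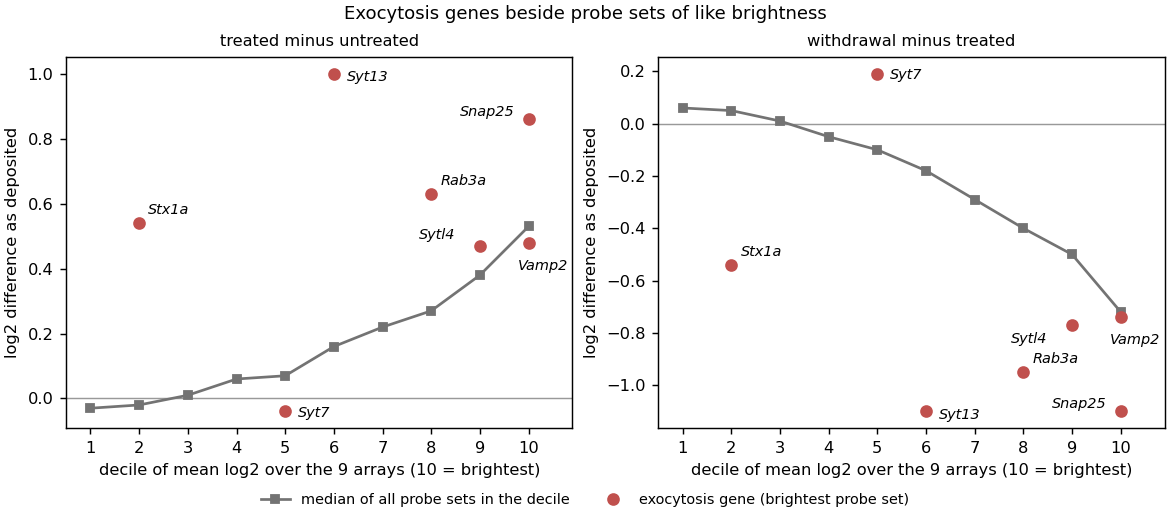
Log2 difference as deposited (y axis) against the decile of mean brightness over the 9 arrays (x axis, 10 is brightest), for treated minus untreated (left) and withdrawal minus treated (right). Grey squares are the medians of all tested probe sets in a decile and red points are exocytosis genes. Vamp2 lies near the median of the brightest decile, whereas Stx1a and Syt13 lie far from those of their deciles.

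The comparison of withdrawal with treated islets asked what the same transcripts did after the drug was stopped. It shares the treated arrays with the first comparison, so that the direction of each is not independent of the other. The 6 genes named above were lower in withdrawal islets (6 of 7 called lower), against a background of 32.6% of all probe sets. Their median difference was -0.77 over the 7 genes, against -0.27 over all genes tested. In the brightest decile, though, 78.7% of probe sets were called lower. Vamp2, at -0.74, lay near its median of -0.72, and Snap25, at -1.10, below it. In the ninth decile 58.6% were called lower, with a median of -0.50, against -0.77 for Sytl4. The medians were -0.40 in the eighth decile, -0.18 in the sixth and 0.05 in the second. Rab3a stood at -0.95, Syt13 at -1.10 and Stx1a at -0.54 beside these. Syt7, at 0.19, lay above the median of the fifth decile, -0.10. After quantile normalization 3 of 7, Stx1a, Syt13 and Rab3a, were lower, against 14.6%, with a median of -0.29 against -0.04. Without the first treated array quantile normalization gave 5 of 7, with Snap25 (-0.34, adjusted p = 0.039) and Sytl4 (-0.33, adjusted p = 0.0294) added. No share over all probe sets is given for that fit, so this count does not set the genes apart. Every one of the 6 calls as deposited held in each fit that left out an array. Values did not overlap for 6 of 7 genes (39% of all probe sets were lower without overlap), and for 5 of 7 after quantile normalization (24.3%). Over the 3 groups, limma's F test called the same 6 genes, with 37% of all probe sets called, and Syt7 had an adjusted p of 0.686. After quantile normalization it called 3 of 7, against 24.5%.

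The comparison of withdrawal with untreated islets asked whether exocytosis transcripts 2 weeks after the drug differed from those of rats that never received it. No gene of the 7 passed the limma test (background 0.159% of probe sets called in either direction, and 0.42% after quantile normalization, where none of the 7 passed either), and at an unadjusted p under 0.05 there was 1, Sytl4, against 8.74% of all genes tested. Sytl4 was also the 1 gene whose groups did not overlap, withdrawal being lower (10.3% of all probe sets were lower without overlap). Its difference was -0.31, with a 95% interval from -0.58 to -0.03 (adjusted p = 0.631). The difference was 0.00 for Stx1a (95% interval -0.27 to 0.27), -0.10 for Syt13 (-0.39 to 0.20) and -0.24 for Snap25 (-0.55 to 0.07). For Vamp2 it was -0.26 (-0.57 to 0.04) and for Rab3a -0.32 (-0.69 to 0.04). A missed threshold does not show that these levels were the same, and the intervals reach differences of more than 0.2 on the log2 scale in each gene. With array weights estimated in limma, 4 of the 7 were called lower, namely Snap25, Vamp2, Rab3a and Sytl4, against a background of 12.1%.

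Of 104 other genes of regulated exocytosis, 91 had a probe set and 77 passed the filter. Of these, 23 were higher in treated than in untreated islets, 4 were lower and 50 did not pass, and the median was 0.26. Over all genes tested 24% were higher and 5.74% lower, with a median of 0.22, so these counts lay near the background. Without the second untreated array 12 were called in either direction, in place of 27. In that fit 7.07% of all probe sets were called higher, and the share called lower is not given. After quantile normalization 8 were higher and 9 lower, with a median of 0.06, against 7.63% and 8.88% of all genes. The genes called in the same direction on both scales were fewer, 7 higher and 4 lower. The higher ones were Cplx2, Rab3b, Rab27a, Rapgef4, Cadps, Syt17 and Exoc5, and the lower ones were Syn1, Syn2, Rab27b and Ppfia4. Exoc5, Syn1, Syn2, Rab27b and Ppfia4 were named after their values were seen. Probe sets of 1 gene did not always move together, as a further probe set of Syt17 differed by 0.02, against 0.69 for the brighter one. Dim further probe sets under the filter differed by -0.07 for Exoc5, against 0.56, and by -0.10 for Cadps, against 0.75. That of Ppfia4 differed by -0.08, against -0.65. A further probe set of Syn2 that passed the filter differed by -0.60, against -0.52, and a dim one under the filter by -0.18. Cplx2, which encodes complexin 2, a clamp and helper of the SNARE bundle, differed by 1.15 ± 0.14 (adjusted p = 0.000881) as deposited and by 1.14 after quantile normalization. Rab3b, a close relative of Rab3a, differed by 1.23 ± 0.16 (0.79 after quantile normalization). Rapgef4, which encodes the cAMP sensor Epac2, differed by 0.93 ± 0.21 (0.87 after quantile normalization). Cplx2 and Rab3b were called in every fit that left out an array, whereas Rapgef4 and Exoc5 had adjusted p of 0.0508 and 0.0507 without the second untreated array.

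The Rab27 paralogs moved in opposite directions. Rab27a, the GTPase that recruits granuphilin to granules, averaged 8.26 in treated, 7.22 in withdrawal and 7.23 in untreated islets. It rose by 1.03 ± 0.19 against untreated (adjusted p = 0.00426), and by 0.73 after quantile normalization. Its further probe sets rose too, by 1.03 and 1.27. Rab27b had means of 5.78, 6.92 and 6.56, and fell by 0.77 against untreated (adjusted p = 0.0258), and by 0.78 after quantile normalization. That call was lost without the second or the third untreated array, at an adjusted p of up to 0.108, and a dim further probe set showed a difference of -0.04. Syn1, which encodes the vesicle tether synapsin I, had means of 7.55, 8.43 and 8.30 in the same order. It fell by 0.75 ± 0.15 (adjusted p = 0.0059), and by 1.02 after quantile normalization. Its further probe set, at -0.24, did not pass (adjusted p = 0.198). Ppfia4, which encodes liprin alpha 4, fell by 0.65, and by 0.60 after quantile normalization (adjusted p = 0.135 without the second untreated array), and Syn2 fell by 0.52 and by 0.54. From treated to withdrawal, Rab27a fell by 1.04 and Rab27b was 1.14 higher, both past the threshold on both scales.

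Between treated and untreated islets, several genes of neighbouring roles were called as deposited and not after quantile normalization. They included the atypical synaptotagmin Syt4 (0.86, then 0.33), the Rab effector Rph3al (0.65, then 0.12), the granule membrane protein Ptprn2 (0.67, then 0.10) and Rab3gap2, a regulator of Rab3 (0.50, then 0.27). The calcium sensors Doc2b and Syt9 and the priming gene Unc13b did not pass on either scale, at 0.36, -0.08 and 0.14. The counts by role are to be read against the same shares of all genes, 24% higher and 5.74% lower as deposited and 7.63% and 8.88% after quantile normalization. Of the Rab list, 7 of 19 Rab GTPase and effector genes rose and 1 fell as deposited, with 4 and 1 after quantile normalization. Of 10 further SNARE genes 3 rose as deposited and none after quantile normalization, where 1 fell. Of 12 SNARE regulators 4 rose and none fell as deposited, with 1 and 1 on the other scale. Of 7 genes of the list of synaptotagmins, Doc2 proteins and otoferlin, 2 rose, Syt4 and Syt17, with 1 after quantile normalization. Of 7 exocyst genes 3 rose, with 1 higher and 1 lower after quantile normalization. Of 12 priming and active zone genes 2 rose and 1 fell, then 1 and 2. Of 10 vesicle membrane and endocytosis genes 2 rose and 2 fell, then 0 and 3. Against withdrawal, 33 of the 77 were lower in withdrawal islets and 5 higher, with 13 lower and 11 higher after quantile normalization. Over all genes 37.9% were lower and 8.46% higher, then 14.2% and 13.3%. Cadps, which encodes the priming factor CAPS1, fell by 1 (adjusted p = 0.000759), and by 0.56 after quantile normalization. Between withdrawal and untreated islets none of the 77 passed by limma, with 7 at an unadjusted p under 0.05, against 8.74% of all genes.

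**Figure D4:**
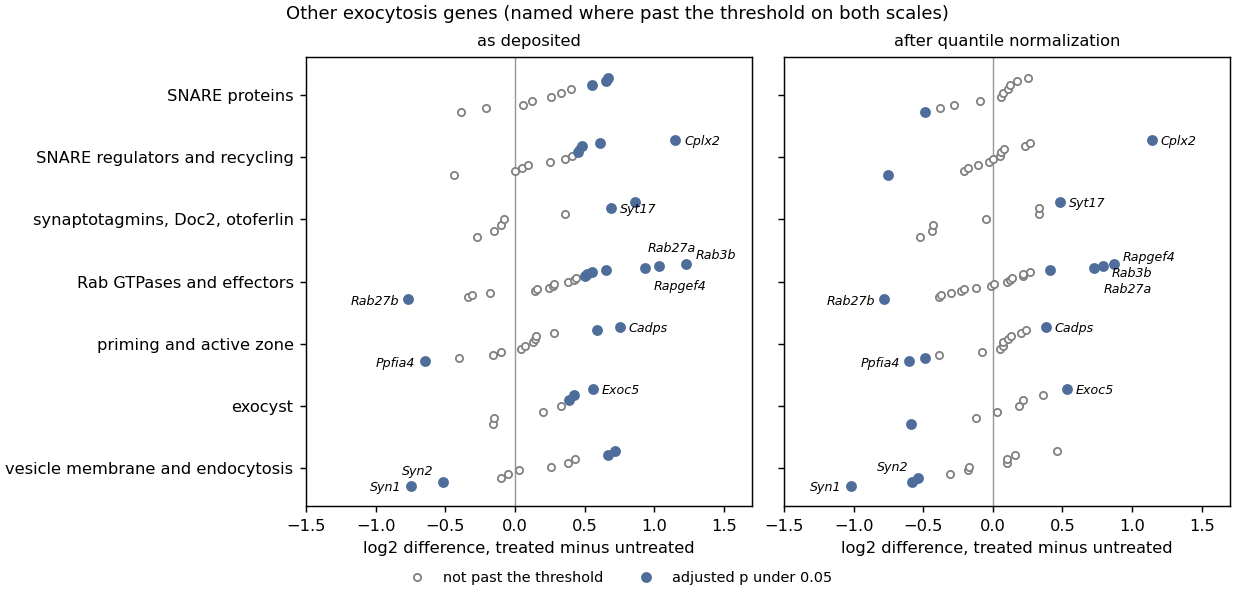
Log2 difference, treated minus untreated (x axis), of 77 other exocytosis genes by role (y axis), as deposited (left) and after quantile normalization (right), with filled points past the adjusted p threshold of 0.05. The Rab row holds both the higher Rab3b (1.23 as deposited) and the lower Rab27b (-0.77).

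The genes whose values ran most like the mean of the standardised exocytosis genes over the 9 arrays were Hyou1, C2cd2l, Sec24d, Ap3b2, Tspyl4, Srpk1, Suclg2 and Smap2, with Pearson correlations of 0.983 to 0.995 among 11612 genes compared. These are descriptions over 9 arrays that share groups and array stretch, and after quantile normalization they ran from 0.705 to 0.951. Of the 8, Tspyl4 and Srpk1 were also called on both scales in treated islets, at 0.82 and 0.58 as deposited and 0.48 and 0.42 after quantile normalization. The insulin genes did not pass between treated and untreated islets, at 0.03 for Ins1 and 0.12 for Ins2, but these probe sets read 14.07 to 14.36, at the top of the range of the arrays (highest value 14.36), where a change may not show. The granule protein gene Chga differed by 0.38 (adjusted p = 0.157) and the glucagon gene Gcg by 0.42 (adjusted p = 0.0579), neither past the threshold. By list, 4 of 8 beta cell, 3 of 7 other hormone cell and 5 of 10 neuroendocrine markers rose, with 0, 3 and 3 after quantile normalization, where 1 neuroendocrine marker fell, against 24% of all genes higher as deposited and 7.63% after quantile normalization. Among 9 tested nerve and Schwann cell markers, 1 rose, Elavl4, at 0.88 (adjusted p = 0.00623), which was singled out after its value was seen, and 7 of the 9 had negative differences.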

How the data were processed

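Islet RNA of 3 groups with 3 arrays each was measured. The values deposited by the authors are log2 values, taken as such because all lie in the narrow range of log2 summaries. RMA and MAS5 are named in the submitters' processing notes, and their roles and versions are not given in the sources used here. Labels of age, treatment and replicate came from GEO's sample records, and 57 control probe sets were left out.

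Gene symbols came from the platform annotation, updated through the RefSeq gene table of GRCr8: 20826 probe sets had 1 symbol, 436 several and 9780 were not listed, with 20758 symbols matched through the gene number and 2 through an accession, and 66 left as they were. The dimmest 33.3% of probe sets, by their mean over the arrays, were left out, which left 20695 probe sets and 11619 genes. Differences were tested with limma 3.58.1 under R 4.3.3, using lmFit with 1 coefficient for each group and eBayes, so that the 9 arrays pooled their spread. P-values were adjusted by Benjamini-Hochberg over the 20695 probe sets, with 0.05 as the threshold. Intervals are 95% limma intervals. Quantile normalization, other filters, trend and robust eBayes, array weights, the replicate number as a block, fits of 6 arrays, probe set means and each array left out were tried. Quantile normalization without the first treated array, and with no filter, was added after the data were seen. Named genes were all 9 members, 6 other exocytosis genes per comparison with the smallest p, a fixed set of others, 8 genes most alike over the arrays, and Ins1, Ins2, Chga and Gcg. The members and lists were chosen with earlier results of these data known. The tests were tested on simulated data. Python 3.11.15 with matplotlib 3.10.9 drew the figures. The number of arrays limits the precision.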

Additional observations from a re-analysis of the deposited data

How the results depend on the processing

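The calls of the 7 exocytosis genes between treated and untreated islets numbered 6 as deposited, 2 after quantile normalization, 2 after quantile normalization without the first treated array and 2 to 6 with each array left out, 2 being without the second untreated array. Between withdrawal and treated islets they numbered 6, with 3 after quantile normalization and 5 when the first treated array was also left out, and limma's F test gave 6, with 3 after quantile normalization and 3 after quantile normalization without the first treated array. Between withdrawal and untreated islets 0 became 4 with array weights. Of the 77 other genes, 27 were called between treated and untreated islets, 17 after quantile normalization and 12 to 35 with each array left out, 12 being without the second untreated array. Between withdrawal and treated islets 38 were called, 24 after quantile normalization, and between withdrawal and untreated islets 0, 18 with array weights. Over all genes, 37.9% were lower and 8.46% higher in withdrawal than in treated islets, then 14.2% and 13.3% after quantile normalization. With array weights 12.1% of all probe sets were lower in withdrawal than in untreated islets. Without the second untreated array 7.07% were higher in treated than in untreated islets. Shares for the other arrays left out are not given, nor for quantile normalization without the first treated array. Those counts therefore do not set the genes apart. The cause of the changes in these counts was not tested.

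Small differences changed sign. For withdrawal minus untreated, Stx1a was -0.03 after quantile normalization, -0.02 centred on array medians, -0.08 with array weights, -0.05 as the mean over probe sets and -0.03 after quantile normalization without the first treated array, and from -0.10 to 0.07 with each array left out, while Snap25 was 0.00 after quantile normalization with all arrays and without the first treated array. For treated minus untreated, Vamp2 was -0.05 after quantile normalization, Syt7 was 0.24 with array weights and 0.13 after quantile normalization without the first treated array (-0.25 to 0.18 with each array left out), and Syt9 was 0.07 and 0.05 under these settings (-0.17 to 0.04 with each array left out). For withdrawal minus treated, Syt7 was -0.07 with array weights (-0.04 to 0.39 with each array left out), and Syt9 was -0.02 after quantile normalization, -0.06 with array weights and -0.12 after quantile normalization without the first treated array (-0.08 to 0.13 with each array left out).

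With the replicate number as a block, the 7 genes gave 6 calls between treated and untreated, 0 between withdrawal and untreated and 6 between withdrawal and treated islets, and the other genes 31, 0 and 44. No share over all probe sets is given for the fit with the block, so these counts do not set the genes apart. Deviations of same-numbered arrays correlated at -0.283 to 0.504, so the numbers were not taken to pair the arrays. Offsets before log2 were not run, since the values are already log2.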
